A study of Mus musculus with 12 samples.

Results

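Hyaluronan is a long sugar chain without a protein core, made at the cell membrane by the hyaluronan synthases Has1, Has2 and Has3 and shortened by hyaluronidases such as Hyal1 and Hyal2. In the matrix it carries versican, the large chondroitin sulfate proteoglycan encoded by Vcan. The complex is fixed by the link protein gene Hapln1 and remodelled by Tnfaip6, whose product TSG-6 transfers heavy chains onto hyaluronan. Cd44 encodes the main cell surface receptor for hyaluronan. Matrices of this kind are known from growing vessels, inflamed tissue and tumor stroma.

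These 9 genes were examined in early tumor islets. They were chosen by name, and 8 of them had a transcript cluster that is paired with a single gene symbol, among 19938 genes in all. Hyal1 shares its 2 clusters with Naa80 and was not analysed here. The islets had been isolated from the pancreas of Rip1Tag2 mice aged 8 weeks, on a C57BL/6 background, and pooled before RNA was extracted. These mice carry the SV40 T antigen under the rat insulin promoter and so express it in beta cells. Both groups carried this transgene and no treatment is named, and islets without it were not analysed here. Islets had been sorted by their appearance. Angiogenic and non angiogenic islets were each measured on 6 Affymetrix arrays, labelled as replicates 1 to 6. The labels give neither the number of mice per pool nor say whether each array had its own pool or its own mice. Arrays are called pools below for short. The p-values therefore measure the spread between arrays, and arrays of the same pool would not be independent.

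The 12 arrays had similar medians, between 7.30 and 7.38 on the log2 scale. Replicates 1 to 3 and replicates 4 to 6 stood apart on the first principal component within each group, and 36.9% of all genes differed between these array sets with group in the model (adjusted p under 0.05 from limma). The study's text speaks of 2 independent profiling experiments, but the labels name no batch. They do not say whether these experiments are the 2 array sets. If they are, arrays of a group within a set may be repeats of the same experiment, and p-values would be too small. Each of these 2 array sets held 3 arrays of each group, so values within each set are given beside the pooled ones. Markers of several cell types differed between the groups. In angiogenic islets 13 of 15 endothelial, 11 of 12 pericyte and smooth muscle, 10 of 12 fibroblast and 8 of 12 macrophage markers passed limma at an adjusted p under 0.05, every one of them with a higher level. Over all genes, 3.55% were higher and 0.948% lower by this test. The mean log2 level of these marker lists did not overlap between groups, with 9.46 to 9.62 against 8.98 to 9.16 for the endothelial, 8.53 to 8.87 against 7.90 to 8.05 for the pericyte, 8.84 to 9.13 against 7.77 to 8.15 for the fibroblast and 8.53 to 8.98 against 8.15 to 8.40 for the macrophage list. Whole islets were measured, so a change in the number of cells of a type and a change in RNA per cell cannot be told apart. The part of these cell types in the results below was not tested. In the other direction, 1 of 9 beta cell and 1 of 6 mesothelial markers were lower in angiogenic islets (3 and 2 with the array set as a block). With this block, 5.88% of all genes were higher and 2.74% lower. Of 5 lymphatic endothelial markers, 1 was higher (2 with the block). The list means of these 3 overlapped between groups, with 11.71 to 11.87 against 11.76 to 12.03 for the beta cell list. The acinar list ranged from 7.74 to 12.21 with groups mixed, and its highest value was that of non angiogenic replicate 4, where T and B cell markers also stood at 6.99 against 6.18 to 6.36 on the other arrays.

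The 250 bases before the RefSeq start are shown for Vcan, Tnfaip6 and Hapln1, the 3 genes of the network with the largest differences, so that the genes can be compared by sequence. They are given 5′ to 3′ on the strand of the gene in build GRCm38.p6. The windows lie at chr13:89742513-89742762 on the minus strand for Vcan, chr2:52037863-52038112 on the plus strand for Tnfaip6 and chr13:89540386-89540635 on the plus strand for Hapln1. Capitals mark matches on either strand to any of 7 short motifs, and no 2 matches overlap here. These were the TATA box (TATAAA), the CCAAT box (CCAAT), the GC box (GGGCGG), the AP-1 motif (TGANTCA), a core of the TCF motif (CTTTGA), the core of the SMAD motif (CAGAC) and the E-box (CACGTG).
Vcan: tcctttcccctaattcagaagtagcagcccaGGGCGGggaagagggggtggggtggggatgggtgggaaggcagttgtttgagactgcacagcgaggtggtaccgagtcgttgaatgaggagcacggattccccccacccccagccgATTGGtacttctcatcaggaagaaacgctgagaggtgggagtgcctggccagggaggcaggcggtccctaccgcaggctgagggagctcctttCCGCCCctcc
Tnfaip6: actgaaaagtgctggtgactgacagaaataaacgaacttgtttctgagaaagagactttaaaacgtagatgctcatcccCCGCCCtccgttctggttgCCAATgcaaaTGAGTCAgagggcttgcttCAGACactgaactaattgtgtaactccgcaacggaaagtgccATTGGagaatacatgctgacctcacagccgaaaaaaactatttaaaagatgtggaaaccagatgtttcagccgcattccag
Hapln1: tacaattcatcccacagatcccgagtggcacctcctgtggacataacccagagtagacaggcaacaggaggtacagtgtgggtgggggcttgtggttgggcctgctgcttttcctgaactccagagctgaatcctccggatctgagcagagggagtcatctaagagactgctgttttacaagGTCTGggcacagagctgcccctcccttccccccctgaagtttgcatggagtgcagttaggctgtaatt
The Vcan window had 62.4% G and C, that of Hapln1 54.4% and that of Tnfaip6 44.4%. The Vcan window held 2 GC boxes and 1 inverted CCAAT box. The Tnfaip6 window held 2 CCAAT boxes, 1 GC box, 1 AP-1 motif and 1 SMAD core, while that of Hapln1 held 1 SMAD core, on the opposite strand, as its only match. Of 32851 windows of this length, 32.7% held the GC box, 33.8% the CCAAT box, 42.2% the SMAD core and 6.75% the AP-1 motif. The TATA box, the TCF core and the E-box, found in 12.4%, 13.8% and 6.02% of all windows, were in none of the 3. A match is a string of letters and not a measured binding site.

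Versican was the single gene of the network that was up-regulated in angiogenic islets by the main test, and none was lower. Over the 8 genes the differences had a median of 0.13 on the log2 scale, against -0.02 over all genes. The log2 level of Vcan ran from 7.51 to 7.78 with a median of 7.57 in angiogenic islets, and from 6.45 to 7.12 with a median of 7.01 in non angiogenic islets. All 6 angiogenic pools lay above all 6 non angiogenic pools. Its mean was 7.61 ± 0.10 (SD, n = 6) against 6.91 ± 0.25 (SD, n = 6), a difference of 0.70 ± 0.10 (SE) on the log2 scale, or 1.62-fold (95% interval 1.40 to 1.88, adjusted p = 4.95e-04 from limma). Over all genes tested, 3.55% were higher and 0.948% lower at this threshold, and 2.85% were higher with no overlap between groups. The study listed Vcan among genes that it selected on these same arrays, so this rise is not independent evidence. The fibroblast and the pericyte lists were higher in the same pools, with median log2 differences of 0.85 and 0.64, and their part in the rise of Vcan was not tested. Without adjustment, limma and the methods' t-test each put Vcan and Tnfaip6 higher and Hapln1 lower, where limma had 7.76% of all genes higher and 6.59% lower and the methods' t-test 7.67% and 6.95%. After Benjamini-Hochberg adjustment the methods' t-test called Vcan alone.

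**Figure D1:**
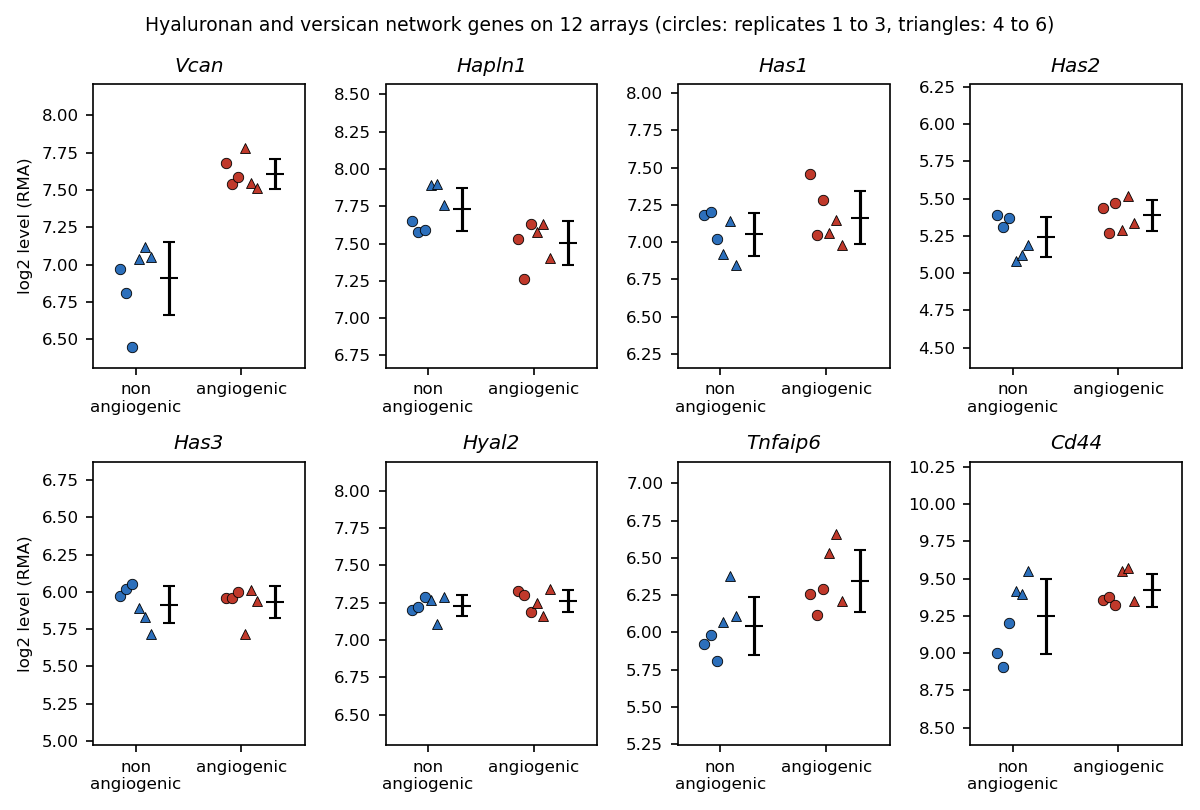
Log2 level (RMA) of 8 genes on each array, with non angiogenic pools in blue and angiogenic pools in red. Circles stand for replicates 1 to 3, triangles for 4 to 6. Bars give the mean and SD of 6 arrays, and every panel spans the same range of log2 units. For Vcan the groups do not overlap (7.51 to 7.78 against 6.45 to 7.12), while for the other 7 genes they do.

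Vcan was higher, and its groups did not overlap, in both array sets, as for 4.89% of all genes. It was 1.82-fold in replicates 1 to 3 (0.86 ± 0.12 on the log2 scale, SE, with adjusted p = 0.0041 by limma) and 1.45-fold in replicates 4 to 6 (0.54 ± 0.08, SE, with adjusted p = 0.0068 by limma). Among all genes 2.37% were higher and 0.331% lower in the first of these fits, and 3.11% and 0.737% in the second. Angiogenic pools had nearly the same mean log2 level of Vcan in both sets, 7.60 and 7.61, whereas non angiogenic pools had 6.74 and 7.07. The lowest value, 6.45, was that of non angiogenic replicate 3. The interaction of group and array set was -0.32 ± 0.15 (SE) and missed the threshold (adjusted p = 0.78 by limma), which 0.00502% of all genes passed.

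By their centred log2 profiles over the 12 arrays, the genes nearest to Vcan were Serpinh1, Rapgef5, Ehd2, Dab2 and Lipa. Their root mean square difference from Vcan was 0.110, 0.124, 0.124, 0.126 and 0.132, where the median over all other genes was 0.420. Serpinh1 encodes the collagen chaperone HSP47, Rapgef5 an exchange factor of small GTPases, Ehd2 a protein of caveolae, Dab2 an endocytic adaptor and Lipa the lysosomal acid lipase. All 5 were higher in angiogenic islets, from a log2 difference of 0.53 for Rapgef5 to 0.81 for Ehd2, which follows from the way they were picked. All 5 were, like Vcan, at their lowest in non angiogenic replicate 3, and Ehd2 was almost as low in replicate 2. The shared low value also follows in part from the way they were picked, as replicate 3 held the lowest value of Vcan.

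**Figure D2:**
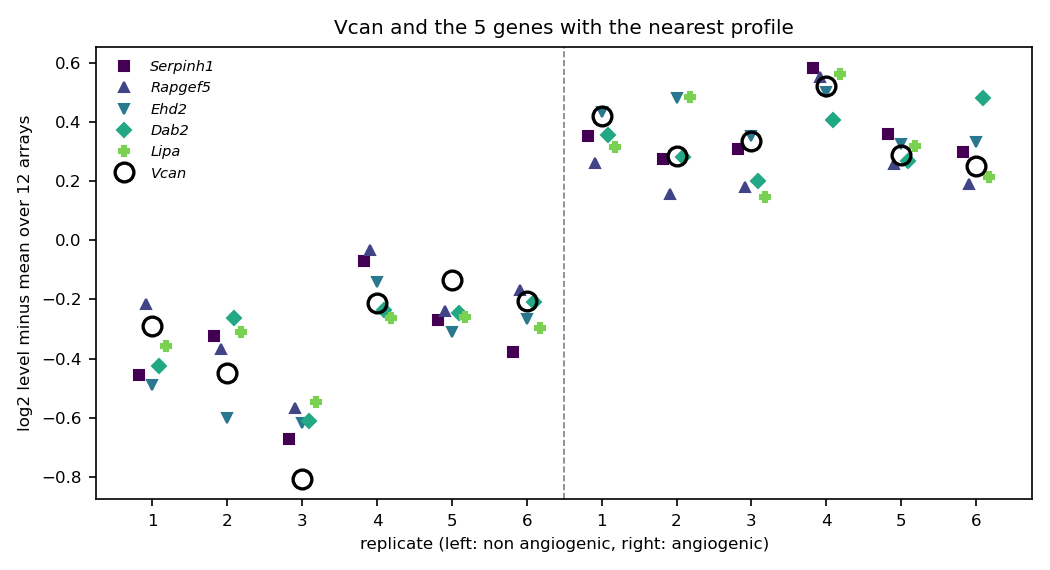
Log2 level minus the mean over the 12 arrays for Vcan (open circles) and the 5 genes with the nearest profile, for each replicate of non angiogenic (left) and angiogenic islets (right). Replicate numbers have no order. The symbols of one array lie close together, as the genes were picked for this, with a root mean square difference from Vcan of 0.110 to 0.132.

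None of the 3 hyaluronan synthase genes passed the test. Has2, which encodes the synthase with the main role in embryonic vessel and heart development, had log2 levels of 5.27 to 5.52 (median 5.39) in angiogenic and of 5.08 to 5.39 (median 5.25) in non angiogenic islets, and the groups overlapped. The log2 difference was 0.14 ± 0.07 (SE, adjusted p = 0.36 from limma), and its 95% interval ran from 0.998-fold to 1.22-fold. Replicates 1 to 3 gave 0.03 and replicates 4 to 6 gave 0.25, where the groups did not overlap (10.7% of all genes were higher in this way). The interaction had an adjusted p = 0.78 from limma.

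Has1 and Has3, the other two synthases, lay between 6.85 and 7.46 and between 5.72 and 6.05 on the log2 scale over all arrays, with angiogenic and non angiogenic pools mixed. The log2 difference was 0.11 ± 0.09 (SE) for Has1 (adjusted p = 0.65 from limma). For Has3 it was 0.02 ± 0.07 (SE, adjusted p = 0.96 from limma), and its sign turned when arrays were centred on their medians and in replicates 1 to 3 alone, where it was -0.04. The 95% intervals were 0.952-fold to 1.23-fold for Has1 and 0.916-fold to 1.12-fold for Has3. No detection call comes with the values. Against 1027 olfactory receptor genes, which islets are not known to need and of which 95% lay under a mean level of 6.44, Has2 (mean 5.32), Has3 (5.92) and Tnfaip6 (6.20) were within that range, and Vcan, Has1, Cd44, Hapln1 and Hyal2 above it. Probes differ in brightness, so this is a guide to weak signals and not a ranking of genes.

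Of the genes that hold the complex together, Hapln1 and Tnfaip6 had differences of opposite sign, and neither passed the main test. Hapln1 ran from 7.26 to 7.63 (median 7.56) in angiogenic and from 7.58 to 7.90 (median 7.71) in non angiogenic islets. The highest angiogenic values overlapped the lowest non angiogenic ones, and 3 of 6 angiogenic pools lay below all non angiogenic pools. The log2 difference was -0.22 ± 0.08 (SE, adjusted p = 0.16 from limma), and it passed in limma once the array set was added as a block (adjusted p = 0.048), where 2.74% of all genes were lower, or the mean of the acinar markers as a covariate (adjusted p = 0.029), where 226 of all genes were lower. Replicates 1 to 3 gave -0.14 and replicates 4 to 6 gave -0.31.

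Tnfaip6, an inflammation-induced gene, ran from 6.12 to 6.66 (median 6.28) in angiogenic and from 5.81 to 6.38 (median 6.02) in non angiogenic islets. Non angiogenic replicate 5 held the highest value of its group, and it alone overlapped with the angiogenic pools. The log2 difference was 0.30 ± 0.10 (SE), or 1.23-fold (adjusted p = 0.15 from limma). With the array set as a block it passed (adjusted p = 0.018 from limma), where 5.88% of all genes were higher, and it also passed without non angiogenic replicate 5 (log2 difference 0.37, adjusted p = 0.047 from limma). The difference was of similar size in both array sets, 0.32 and 0.28.

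Cd44 was well above the olfactory receptor range, with log2 levels of 9.32 to 9.57 (median 9.37) in angiogenic and 8.91 to 9.55 (median 9.30) in non angiogenic islets. Its pooled log2 difference was 0.18 ± 0.10 (SE, adjusted p = 0.49 from limma, 95% interval 0.973-fold to 1.31-fold). In replicates 1 to 3 all angiogenic pools lay above all non angiogenic pools, with a log2 difference of 0.32 (adjusted p = 0.084 from limma), as did 9.35% of all genes. In replicates 4 to 6 the difference was 0.03. The interaction was -0.29 ± 0.12 (SE). It was under 0.05 before adjustment by limma, as for 6.41% of all genes, and not after it (adjusted p = 0.77). Between the array sets the mean of Cd44 went from 9.04 to 9.46 in non angiogenic and from 9.36 to 9.49 in angiogenic pools. With group in the model the sets differed by 0.28 (adjusted p = 0.0060 from limma), as did 36.9% of all genes.

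Hyal2, which encodes a membrane-anchored hyaluronidase, had log2 levels of 7.16 to 7.34 in angiogenic and 7.11 to 7.29 in non angiogenic islets, and a difference of 0.03 ± 0.05 (SE) on the log2 scale (adjusted p = 0.88 from limma). The 95% interval ran from 0.949-fold to 1.10-fold.

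**Figure D3:**
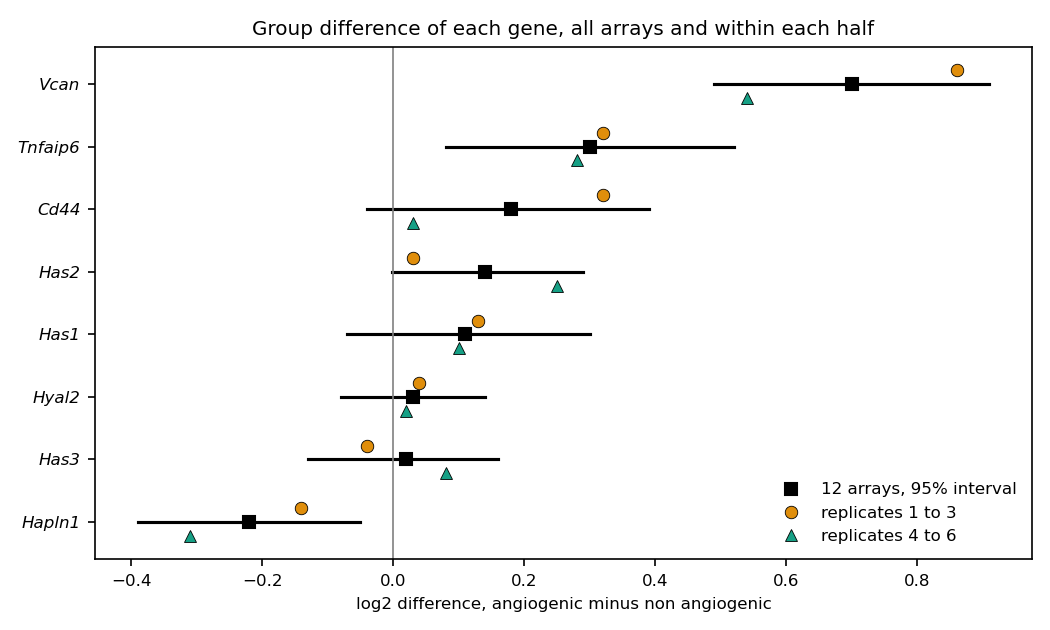
Log2 difference between angiogenic and non angiogenic islets for 8 genes, as squares with the 95% interval over 12 arrays, and separately within replicates 1 to 3 (circles) and 4 to 6 (triangles). Vcan lies at 0.70, with 0.86 and 0.54 in the 2 array sets, and Hapln1 at -0.22, while the intervals of Cd44, Has1, Has2, Has3 and Hyal2 include 0. Those of Hapln1 (-0.39 to -0.05) and Tnfaip6 (0.08 to 0.52) do not. The intervals are not adjusted for the number of genes, and neither of these genes passed the main test.

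Other genes of the pathway were grouped by role. Of 77 such genes, 10 were higher and 1 was lower in angiogenic islets by limma, where 3.55% of all genes were higher and 0.948% lower, with a median log2 difference of 0.03 against -0.02 over all genes. Of 7 proteases that cleave versican, 4 were higher and none lower, with a median of 0.27. Adamts5 ran from 6.74 to 7.16 (median 6.98) in angiogenic and from 6.20 to 6.42 (median 6.28) in non angiogenic islets, and was 1.59-fold higher (adjusted p = 8.80e-05 from limma). Adamts1 was 1.52-fold (adjusted p = 7.42e-05), Adamts4 1.40-fold (adjusted p = 8.32e-04) and Adamts8 1.21-fold higher (adjusted p = 0.017), all from limma. None of these 4 genes overlapped between groups, as for 2.85% of all genes in this direction. Adamts8 did not pass in replicates 1 to 3 alone (0.17 against 0.38 in replicates 4 to 6, on the log2 scale). The study had selected Adamts1, Adamts5 and Adamts9 on these arrays too, so they are not independent evidence. Adamts9 had 6 clusters that disagreed in size, with log2 differences of 0.11 to 0.49. The brightest gave 0.22 and did not pass the main test (adjusted p = 0.095 from limma). It passed with the array set as a block (adjusted p = 0.043 from limma), which made 5 of the 7 proteases higher, where 5.88% of all genes were higher. In addition, 2 of the 6 clusters passed when every cluster was tested. Adamts15 and Adamts20 had differences of 0.06 and -0.01.

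Among 7 other genes listed here as receptors of hyaluronan, 2 were higher and none lower, where 3.55% of all genes were higher and 0.948% lower. The median log2 difference of these 7 genes was 0.25, and binding of hyaluronan by their products was not measured. Stab1, which encodes the scavenger receptor stabilin-1 of macrophages and sinusoidal endothelium, ran from 8.35 to 8.96 (median 8.61) in angiogenic and from 7.81 to 8.05 (median 7.91) in non angiogenic islets. It was 1.67-fold higher (adjusted p = 9.52e-05 from limma), in both array sets (0.70 and 0.78 on the log2 scale). Its groups did not overlap, as for 2.85% of all genes in this direction. The macrophage and endothelial lists had medians of 0.45 and 0.43 in the same comparison, and their part in the level of Stab1 was not tested. For the membrane lectin gene Layn the level was 1.20-fold higher (adjusted p = 0.023 by limma). Layn lost this call without angiogenic replicate 1 or 2 or non angiogenic replicate 3, 5 or 6 (adjusted p up to 0.056) and when every cluster was tested (adjusted p = 0.053). Its difference was 0.26 in replicates 1 to 3 and 0.27 in 4 to 6, and neither passed alone (adjusted p = 0.13 and 0.068 from limma). Lyve1, the receptor of lymphatic endothelium, had a difference of -0.16 ± 0.09 (SE) on the log2 scale (adjusted p = 0.53 from limma). For Stab2 the difference was -0.06 ± 0.07 (SE, adjusted p = 0.82 from limma). With the array set as a block, 4 of the 7 were higher, among them Hmmr and Tlr4, where 5.88% of all genes were higher. The mean level of Tlr4, 5.46, lay within the range of the olfactory receptor genes, so its signal is weak.

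Genes that build the chondroitin sulfate chains carried by versican numbered 22, of which 3 were higher and none lower, with a median log2 difference of 0.06. Over all genes, 3.55% were higher and 0.948% lower by this test. With the array set as a block 4 were higher, where 5.88% of all genes were. The xylosyltransferase gene Xylt1 then passed (log2 difference 0.22, adjusted p = 0.065 without and 0.0097 with the block, from limma). Chst15, which encodes a sulfotransferase of chondroitin sulfate, was 1.32-fold higher (8.34 to 8.67 against 8.04 to 8.20 on the log2 scale, adjusted p = 7.88e-04 from limma). Csgalnact1, the gene of an initiating transferase, gave 1.25-fold (adjusted p = 0.0079 from limma). Neither gene overlapped between groups, as for 2.85% of all genes in this direction. Dse, the gene of a dermatan sulfate epimerase, was 1.29-fold higher (adjusted p = 0.029 from limma). This last call was lost without any of angiogenic replicates 1 to 4 or non angiogenic replicates 4 to 6 (adjusted p up to 0.069) and by the methods' t-test after adjustment (adjusted p = 0.080), by quantile normalization (0.081) and when every cluster was tested (0.072). In replicates 1 to 3 alone Chst15, Csgalnact1 and Dse did not pass, with log2 differences of 0.38, 0.22 and 0.30 against 0.42, 0.42 and 0.43 in replicates 4 to 6. Among 9 ligands and membrane linkers of CD44, Msn, the gene of the cytoskeletal linker moesin, was the single gene that passed (1.57-fold, adjusted p = 7.09e-04 from limma), with a median of 9.91 against 9.22 and no overlap. The related linkers Ezr and Rdx had log2 differences of 0.01 and 0.05.

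**Figure D4:**
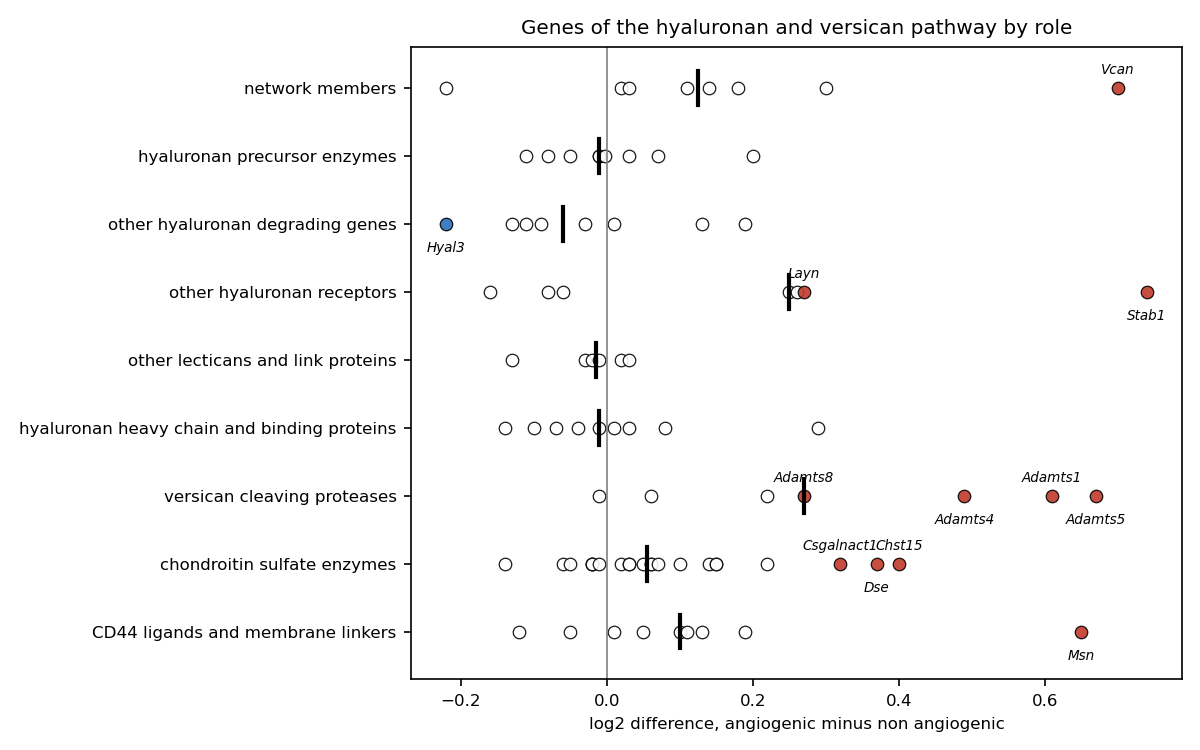
Log2 difference between angiogenic and non angiogenic islets for each gene, by role, with filled circles for genes past an adjusted p of 0.05 from limma (red higher, blue lower), open circles for the others and a bar at the median of the list. Named circles include Vcan at 0.70, Stab1 at 0.74, Adamts5 at 0.67 and Hyal3 at -0.22.

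No gene passed among 9 enzymes of the sugar precursors, 6 other lecticans and link proteins and 9 heavy chain and other binding proteins, with median log2 differences of -0.01, -0.02 and -0.01 by limma. At an unadjusted p under 0.05 they held 1, 0 and 1 higher genes and no lower gene, where 7.76% of all genes were higher and 6.59% lower, and the methods' t-test after adjustment called none. The largest differences in these lists were 0.20 for Gfpt2, which encodes an enzyme of the hexosamine pathway (adjusted p = 0.24), -0.13 for the brain lectican gene Bcan (adjusted p = 0.55) and 0.29 for the heavy chain gene Itih5 (adjusted p = 0.19), all from limma. Gfpt2 and Itih5 passed with the array set as a block (adjusted p = 0.040 and 0.010 from limma). The log2 difference of Itih5 was 0.44 in replicates 1 to 3, where it passed alone (adjusted p = 0.020), and 0.14 in replicates 4 to 6 (adjusted p = 0.38), and the interaction did not pass (adjusted p = 0.74 from limma). For Gfpt2 it was 0.21 and 0.19. Of 8 other genes of hyaluronan breakdown, Hyal3 was lower and none was higher. Hyal3 ran from 7.36 to 7.52 in angiogenic and from 7.60 to 7.80 in non angiogenic islets, with a log2 difference of -0.22 (adjusted p = 0.019 from limma), and no overlap, as for 0.923% of all genes in this direction. It lost this call without angiogenic replicate 4 or 6 (adjusted p = 0.051 and 0.053) and in replicates 1 to 3 alone (log2 difference -0.17, adjusted p = 0.28). Its gene overlaps Naa80 in RefSeq, so its signal is uncertain. Cemip and Cemip2, whose products depolymerize hyaluronan, had differences of -0.13 and 0.19 with standard errors of 0.12 each and did not pass.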

How the data were processed

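RNA of islet pools was measured on 12 Affymetrix mouse gene arrays. The log2 values of transcript clusters were deposited by the authors and made with RMA in Affymetrix Expression Console according to the submitters' processing notes. RMA corrects background, aligns the distributions of the arrays and summarises probes, so an overall change in RNA content is hidden and weak signals are compressed. For software versions, the build, and joint or separate normalization of the arrays, the sources used here give nothing.

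Values were used as deposited. Clusters with exactly 1 gene symbol in the platform annotation (21789 of 35556, with 1621 carrying several and 12146 unnamed) were kept, and the brightest was taken per gene, leaving 19938 genes. Gene identifiers were checked against RefSeq (GRCm38.p6), which changed 0 symbols. Groups were compared over all genes with limma 3.58.1 in R 4.3.3 (lmFit, eBayes, two-sided, Benjamini-Hochberg adjustment, threshold 0.05), after the fit had been tested on simulated data. The simulated arrays were drawn independently and without a difference between array sets, so the simulation could not test the fit for such effects. The promoter sequences are those of RefSeq, where 7 of the 9 genes were matched. The number of arrays limits the precision.

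The genes and lists were chosen with earlier results of these data known. Named are all genes of the network and, per list, the 4 largest differences past the threshold or else the largest difference, and the 5 nearest profiles to Vcan. Adamts9, Adamts15, Adamts20, Lyve1, Stab2, Hmmr, Tlr4, Xylt1, Ezr, Rdx, Cemip and Cemip2 were named after their values were seen. Alternatives were the methods' t-test, array weights or a mean-variance trend in limma, quantile normalization or centring on array medians, a filter on genes below the median level, averaged clusters per gene or a test of every cluster, a block for the replicate number or for the array set (replicates 1 to 3 or 4 to 6), each set alone, an acinar marker covariate, and omission of each array in turn. The labels do not say whether replicate numbers pair the samples, for example by shared mice. Deviations of equally numbered arrays from their group means correlated with r between 0.0276 and 0.538. With the means of group and array set removed, r lay between -0.337 and 0.123. These values cannot decide on pairing, and the main test left the samples unpaired. RT-qPCR and tissue stainings were not analysed here.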

Additional observations from a re-analysis of the deposited data

Results flagged for a closer look

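The Has3 level of angiogenic replicate 4 was 5.72, the lowest of its group, and lay apart from the next value of 5.94 by 0.748 of the range of the 6 arrays, above Dixon's critical value for 6 values at the 95% level. It was the 1 flag among 44 groups of 6 arrays, and chance alone flags about 1 in 20 groups.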

How the results depend on the processing

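The rise of Vcan kept its direction and its call under all 25 alternatives in which it was tested, between 0.54 and 0.86 on the log2 scale (highest adjusted p = 0.0068). Where genes below the median level were left out, Vcan itself was not tested, and Cd44 was the only network gene that was. In that fit 0 genes of the network, 467 of all genes and 5 of the other pathway genes were higher, with 0 of the latter lower. Genes left out could not be called, so these counts cannot be set directly against those of the main test. With the array set as a block, 2 network genes were higher and 1 was lower, against 1172 and 547 of all genes, and 16 of the other pathway genes were higher. The methods' t-test without adjustment gave 2 and 1 network genes, 1529 and 1385 of all genes and 16 and 4 pathway genes. The replicate block gave 2 and 1 network genes and 1058 and 449 of all genes, and Tnfaip6 and Hapln1 passed in it (adjusted p = 0.01 and 0.042 from limma). Whether replicate numbers pair the samples is not known. The r was 0.0276 for replicate 3, and only replicates 1 and 4 correlated best with their own number. With the acinar mean as a covariate 1 network gene, Hapln1, was lower, as were 226 of all genes. Replicates 1 to 3 alone gave 66 lower genes in all, and 6 higher and 0 lower pathway genes, with Adamts8, Chst15, Csgalnact1, Dse, Hyal3 and Layn not passing, and in replicates 4 to 6 alone Layn did not pass either. Leaving out 1 array gave 1 to 2 higher and 0 lower network genes, 553 to 715 higher and 110 to 178 lower genes in all (110 without angiogenic replicate 6), and 8 to 11 higher and 0 to 1 lower pathway genes. The sign of Has3, which was not called, turned with median centring (-0.0012), in replicates 1 to 3 alone (-0.04) and when 1 array was left out (-0.02 to 0.06). The causes were not tested. Weak signals, such as those of Has2, Has3 and Tnfaip6, limit what can be seen.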
